A study of Mus musculus with 8 samples.

Results

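A group of 10 genes of the oxygen-sensing pathway were followed through RNA sequencing of mouse CD8+ T cells, the killer lymphocytes of the adaptive immune system. They were the hypoxia-inducible factor genes Hif1a and Arnt, the ubiquitin ligase gene Vhl, the prolyl hydroxylase genes Egln1, Egln2 and Egln3, and the target genes Bnip3, Bnip3l, Vegfa and P4ha1. The members were picked by gene symbol, and all 10 were found among the 49490 genes listed in the first experiment and the 55291 listed in the second. In the first experiment, CD8+ T cells activated in vitro that lacked Trim28 (Trim28-/-, the knockout) were compared with activated cells carrying Trim28fl/fl (the control, labelled WT). Trim28 encodes a co-repressor of chromatin, and neither the Cre that removed the gene nor the length of the activation is given in the labels. In the second, CD8+ T cells labelled WT were stimulated for 3 days through anti-CD3 plus anti-CD28, without further treatment (untreated) or with anti-IL-2, an antibody against the growth factor interleukin 2 (blocked). All cells came from spleens and lymph nodes, and each of the 4 groups held 2 libraries. The labels do not give the age, sex or strain of the mice, nor whether the libraries of a group came from separate mice or cultures, so p-values measure only the spread between libraries, which may be technical.

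The pathway turns oxygen supply into gene expression. The EGLN enzymes, also called PHD proteins, use oxygen to hydroxylate prolines of the HIF-1 alpha protein, and the VHL protein then marks the hydroxylated form for destruction. Where hydroxylation falls short, HIF-1 alpha pairs with ARNT and switches on genes of glycolysis, angiogenesis, mitophagy and collagen folding. In T cells, HIF-1 alpha is also made under normal oxygen after stimulation through the antigen receptor, and it is known to support glycolysis and effector function. Much of its control acts on the protein, which RNA sequencing does not measure.

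Values are normalised read counts, meaning gene read counts that the authors divided by a size factor per library, within each experiment. Reads counted in genes, recovered from these values, summed to between 13222831 and 17069569 per library. The knockout label was borne out by Trim28 itself, at 4262 and 4323 in control libraries and 415 and 458 in those of the knockout. In the second experiment Trim28 was at 5774 and 5920 in untreated and 7926 and 8528 in blocked libraries. Il2ra, a receptor gene for IL-2, was at 44645 and 43661 in untreated and 22025 and 21937 in blocked libraries. In the first experiment Il2ra was at 26819 and 27387 in control and 24794 and 23967 in knockout libraries. For a typical gene the 2 control libraries and the 2 knockout libraries differed about as much as counting alone would give, with a median chi-square of 0.437 and 0.45 at 1 degree of freedom, against 0.571 in untreated and 1.32 in blocked cells. The mean chi-square was higher, at 2.12, 2.77, 1.38 and 4.62, so in every group the libraries differed by more than counting alone over part of the genes. CD8+ T cell markers (Cd8a, Cd8b1, Cd3d, Cd3e, Cd3g) summed to between 1296 and 1625 CPM, the counts scaled to a common library total, in every library. Markers of CD4 T cells summed to between 29 and 39.1 CPM in the control, untreated and blocked libraries and to 11.6 and 12.8 CPM in the knockout, with Cd4 itself at 0 to 10 reads per library. Outside the knockout most of that sum was Cd40lg, at 25.7 and 27.2 CPM in the control and 3.13 and 3.71 in the knockout. Foxp3 went the other way, from 0.302 and 0.378 CPM in the control to 3.28 and 3.71 in the knockout, and from 3.36 and 2.95 in untreated to 0.528 and 0.586 in blocked libraries. Myeloid markers, mostly Cd68, summed to 18.3 to 21.5 CPM in the control, 10.6 to 11.5 in the knockout, 19.9 to 20.7 in untreated and 5.21 to 5.4 CPM in blocked libraries. Stromal and endothelial markers, mostly Pecam1, which T cells also express, summed to 66.1 to 69.4 CPM in blocked and at most 47.1 CPM in the other libraries. B cell, NK and erythroid markers stayed under 3 CPM in sum, and Ncr1 was at 0 reads in all 8 libraries. The part of these other cells in the results was not tested. In bulk RNA, fewer cells of a type cannot be told apart from less RNA per cell.

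In both comparisons 7 of the 10 genes fell, 2 rose and 1, Vhl, did not pass. They were the same genes each time, with Arnt and Egln2 higher and Hif1a, Egln1, Egln3, Bnip3, Bnip3l, Vegfa and P4ha1 lower. A gene is said to rise or fall where the limma test across all genes gave an adjusted p under 0.05. In these data many genes changed, and 61% of 15415 tested genes passed in the knockout (32.9% higher, 28.2% lower) and 60.3% of 13978 passed with blockade (31.4% higher, 28.9% lower). The balance of directions turned with upper-quartile scaling, which gave 4199 higher and 5227 lower in the knockout and 3822 higher and 4498 lower with blockade, against 5065 and 4344 and 4391 and 4033. Of 12428 genes tested in both, 18.1% were lower in both and 22.5% higher in both. Only 5.59% passed in both with opposite directions, so the same direction in both was common among all genes. The 2 groups did not overlap for any of the 10 genes in either comparison, as held for 82.3% and 79.3% of all genes tested. The genes were gathered with earlier results of these data known, Bnip3 in the knockout among them, so their calls describe these libraries and support nothing beyond them. Egln3 and Bnip3 were called and more than 2-fold lower in the knockout, and Egln3, Bnip3 and Hif1a with blockade, where 10.4% and 14.9% of all genes changed by 2-fold or more in either direction. Of the genes tested in both, 4.18% were lower by that much in both.

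**Figure D1:**
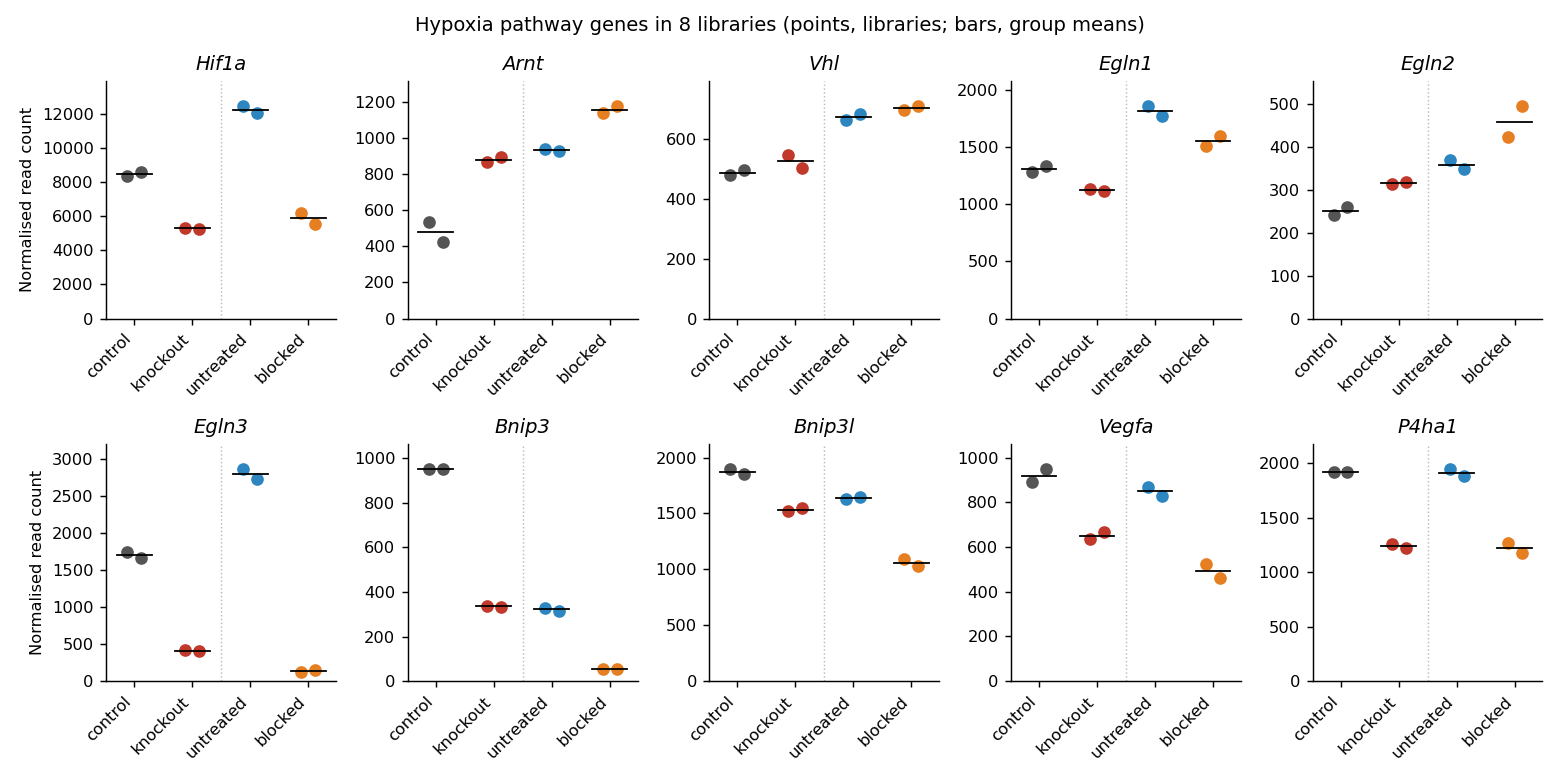
Normalised read count (y axes, each from 0) of the 10 genes in each of the 8 libraries, with bars at the group means and a dotted line between the 2 experiments, which were scaled separately. Egln3 and Bnip3 show the widest gaps, with Egln3 at 1667 to 1746 in control and 413 to 416 in knockout libraries, while the Vhl groups lie close together.

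Hif1a, the gene of the oxygen-regulated subunit, was the most abundant of the 10 in every group and fell in both comparisons. The control libraries held 8359 and 8587 normalised reads of it and the knockout libraries 5321 and 5235. The control values were the higher ones and lay far above the knockout. This made a log2 fold change of -0.68 (SE 0.027, with n = 2 in each group), or 1.61-fold lower. In the second experiment the untreated libraries held 12424 and 12039, and the blocked libraries 6210 and 5527. That was a log2 fold change of -1.06 (SE 0.055), or 2.09-fold lower. Hif1a shares 330 exonic bases with Gm15283 on the other strand, which was listed at no more than 34.5 in any library. It also shares 148 exonic bases with Gm49321 on the same strand, whose reads were not analysed here.

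Arnt, whose protein is the constant partner of HIF-1 alpha and is not regulated by oxygen, moved the other way. It was at 536 and 425 in the control, against 867 and 893 without Trim28, so the control libraries were the lower pair and also the more scattered. The log2 fold change was 0.88 (SE 0.11, adjusted p = 0.000871). Its size depended on the control library used, at 1.05 without control replicate 1 and 0.71 without control replicate 2. Leaving out knockout replicate 1 gave 0.90 (adjusted p = 0.0517) and leaving out knockout replicate 2 gave 0.86 (adjusted p = 0.0555), and neither passed. With blockade Arnt rose from 938 and 927 to 1136 and 1174, a log2 fold change of 0.31 (SE 0.062). Levels of different genes can be set side by side only per length, for which reads per length of exon and per library total (RPKM) were computed. Hif1a stood at 107 ± 2.26 RPKM and Arnt at 4.47 ± 0.72 in the control (SD, n = 2), a ratio of 21.2 and 27.5 in the 2 libraries. In the knockout the ratio was 8.34 and 7.96. In untreated cells it was 18.0 and 17.6, against 7.42 and 6.39 in blocked cells. Hif1a transcripts were in excess in every library, and the ratio was lower in the knockout and in the blocked cells than in their references. The exact permutation test of 2 libraries against 2 cannot go below p = 0.333, so none was run on the ratios.

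Vhl, the substrate-binding part of the ligase that marks hydroxylated HIF-1 alpha, differed little. The control libraries held 478 and 495 and the knockout libraries 546 and 504. With blockade untreated libraries held 662 and 684 and blocked libraries 697 and 708. The treated libraries were a little higher each time without overlap, but the log2 fold changes were 0.11 (SE 0.057, adjusted p = 0.145) and 0.062 (SE 0.069, adjusted p = 0.458). Their 95% intervals ran from -0.031 to 0.25 and from -0.083 to 0.21, so changes within these bounds were not excluded. The copy Vhl-ps1 was listed at 0 in all libraries.

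Of the 3 prolyl hydroxylase genes, Egln1 and Egln3 fell and Egln2 rose in both comparisons. Egln1 encodes PHD2, the main oxygen sensor in most tissues. Its control values of 1280 and 1340 stood above 1137 and 1121 in the knockout, a log2 change of -0.21 (SE 0.039, adjusted p = 0.00446). With blockade it went from 1858 and 1779 to 1513 and 1599, a log2 change of -0.23 (SE 0.058, adjusted p = 0.00237). Both falls were small next to those of Egln3, and not all smaller fits kept them. In the knockout, Egln1 missed the threshold when knockout replicate 1 (-0.22, adjusted p = 0.0543) or knockout replicate 2 (-0.20, adjusted p = 0.0628) was left out, and with blockade when untreated replicate 1 was (-0.19, adjusted p = 0.0853).

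Egln2, the gene of PHD1, rose modestly. The control libraries held 241 and 260 and the knockout libraries 313 and 318. The log2 fold change was 0.33 (SE 0.062, adjusted p = 0.0051). The call was lost on leaving out knockout replicate 1 (0.34, adjusted p = 0.0601) or knockout replicate 2 (0.32, adjusted p = 0.0654) and by DESeq2 on the recovered reads (0.30, adjusted p = 0.181), and the authors' deposited table also gives an adjusted p of 0.0623 for it. With blockade Egln2 went from 370 and 348 to 423 and 495. The log2 fold change was 0.35 (SE 0.091, adjusted p = 0.0027), and 0.24 without blocked replicate B, the higher of the blocked libraries. Without the filter on low values the blockade call was lost (adjusted p = 0.0876).

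Egln3, the gene of PHD3 and itself a well-known target induced by HIF, changed most of the 10 in both comparisons. It was at 1746 and 1667 in the control libraries and at 416 and 413 in the knockout libraries. Both knockout libraries were far below the control, and close to each other. Its log2 fold change was -2.04 (SE 0.042, adjusted p = 3.68e-06), a 4.11-fold lower level, and 1.97% of tested genes had a lower log2 fold change. In the second experiment the untreated libraries held 2861 and 2724 and the blocked libraries 127 and 149. That was a log2 change of -4.33 (SE 0.081, adjusted p = 2.49e-18), a 20.2-fold lower level, with 0.243% of tested genes lower still.

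Per length, the fall of Egln3 changed which prolyl hydroxylase transcript prevailed. Egln3 was the highest of the 3 in the control, at 47.7 ± 1.47 RPKM (SD, n = 2), against 27.2 ± 0.94 for Egln1 and 6.66 ± 0.35 for Egln2. In the knockout Egln1 was highest, at 23.8 ± 0.25, with Egln3 at 11.8 ± 0.064 and Egln2 at 8.53 ± 0.081. Untreated cells had the order of the control, with 60.9 ± 1.63 for Egln3, 29.4 ± 0.68 for Egln1 and 7.45 ± 0.26 for Egln2. In blocked cells Egln3 was the lowest, at 3.17 ± 0.34, below Egln2 at 10 ± 1.07 and Egln1 at 26.5 ± 0.92. Egln3 thus made up 59.7% and 57.4% of the summed RPKM of the 3 genes in the control libraries and 26.7% in both knockout libraries. The share was 62.3% in both untreated libraries, against 7.7% and 8.24% in blocked cells. The sum itself was 81.7 and 81.4 RPKM in control and 44.3 and 44 in knockout libraries, and 99.6 and 96 in untreated and 38.1 and 41.4 in blocked libraries. With the longest transcript as the length in place of all annotated exons, the mean Egln3 shares were 57% in the control, 25.1% in the knockout, 60.8% in untreated and 7.36% in blocked cells.

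**Figure D2:**
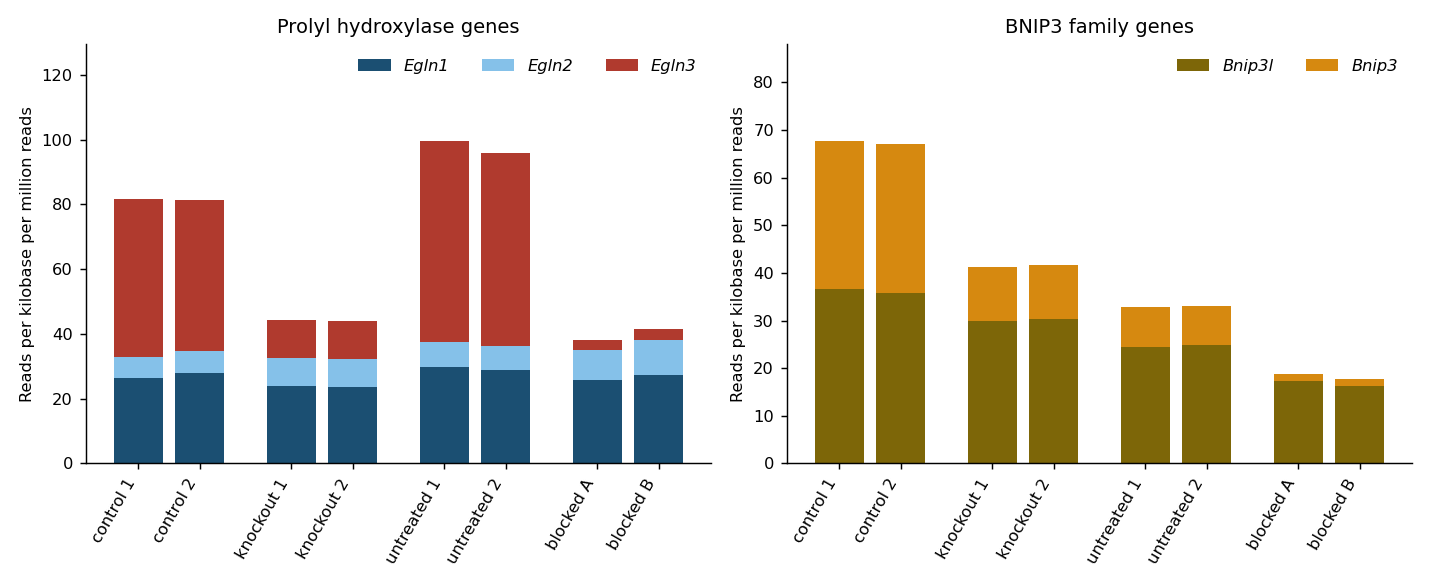
RPKM (y axes, from 0) in each library, stacked by gene, for the 3 prolyl hydroxylase genes (left) and the 2 BNIP3 family genes (right). The Egln3 segment shrinks from 59.7% and 57.4% of the stack in control to 26.7% in knockout libraries and from 62.3% in untreated to 7.7% and 8.24% in blocked libraries, while the Egln1 segment stays between 23.6 and 29.9 RPKM.

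Among the targets, Bnip3 fell most. Its protein sits on the outer mitochondrial membrane and recruits the autophagy machinery to mitochondria. It was at 949 in both control libraries and at 337 and 334 in the knockout, a log2 fold change of -1.5 (SE 0.042), or 2.82-fold lower. In the second experiment the untreated libraries held 329 and 316 and the blocked libraries 54.4 and 53.7. The log2 fold change there was -2.56 (SE 0.13, adjusted p = 2.78e-12), or 5.88-fold lower. The 2 libraries of each group were close together and the groups far apart. Bnip3 shares 504 exonic bases with Gm45507 on the other strand, which was listed at 0 in all 8 libraries.

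Bnip3l, whose protein NIX is the close relative of BNIP3 and clears mitochondria from maturing red cells, fell less. It went from 1896 and 1849 in the control to 1520 and 1550 in the knockout, a log2 fold change of -0.29 (SE 0.033). With blockade it went from 1632 and 1644 to 1089 and 1026, a log2 fold change of -0.63 (SE 0.06). The copy Bnip3l-ps can share reads with it, and its values were 537 and 500 (control), 415 and 404 (knockout), 102 and 105 (untreated) and 62 and 49.9 (blocked). The copy held 26.1% to 28.3% of the Bnip3l value in the first experiment and 4.86% to 6.39% in the second, so levels of Bnip3l are not comparable between the experiments. With the copy added, the log2 ratio of the group means was -0.30 in the knockout and -0.64 with blockade, close to -0.29 and -0.63 without it. Bnip3 made up 46% and 46.6% of the summed RPKM of the pair in control and 27.4% and 26.9% in knockout libraries. Its share was 25.6% and 24.7% in untreated and 7.84% and 8.19% in blocked libraries. These shares leave out the copy, and counting it with Bnip3l would lower them, more so in the first experiment. In each experiment the balance thus lay further towards Bnip3l in the treated cells.

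Vegfa, the gene of the main angiogenic growth factor, fell from 889 and 948 in the control to 635 and 666 in the knockout, a log2 change of -0.50 (SE 0.051, adjusted p = 0.000451). Blockade lowered it from 870 and 828 to 522 and 463, a log2 fold change of -0.79 (SE 0.076). The lowest reference library was well above the highest treated one in both experiments.

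P4ha1 encodes the catalytic subunit of collagen prolyl 4-hydroxylase, which works in the endoplasmic reticulum and does not act on HIF. The control libraries held 1918 and 1925, and those of the knockout 1257 and 1220. The untreated libraries held 1947 and 1882 and the blocked libraries 1272 and 1180. The treated libraries were lower each time, by nearly the same proportion. The log2 fold changes were -0.63 (SE 0.033) and -0.64 (SE 0.059), or 1.55-fold and 1.56-fold lower.

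Per length of all annotated exons, the order of the 10 genes changed with treatment. In the control the order from the top was Hif1a, Egln3, Bnip3l, P4ha1, Bnip3, Egln1, Vegfa, Vhl, Egln2 and Arnt, and no neighbours overlapped between libraries. In the knockout it was Hif1a, Bnip3l, Egln1, P4ha1, Vhl, Egln3, Vegfa, Bnip3, Egln2 and Arnt, and Vegfa, at 11.2 and 11.8 RPKM, overlapped with both Egln3 and Bnip3. Untreated cells ran from Hif1a (121 ± 1.72 RPKM) and Egln3 through Egln1, P4ha1, Bnip3l, Vhl, Vegfa, Bnip3 and Egln2 to Arnt (6.77 ± 0.0058). Blocked cells ran from Hif1a (61 ± 5.28) through Egln1, P4ha1, Bnip3l, Vhl, Egln2, Arnt and Vegfa to Egln3 and Bnip3 (1.46 ± 0.02), with no overlap between neighbours. Egln3 thus went from the second place in both references to the sixth in the knockout and the ninth in blocked cells. The order depended on the length used. With the longest transcript, Egln3 was again second in both references and ninth in blocked cells, but ninth in the knockout as well. Arnt, last in the control under both lengths, was then number 5 of 10 in the knockout and in blocked cells and number 8 in untreated cells.

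**Figure D3:**
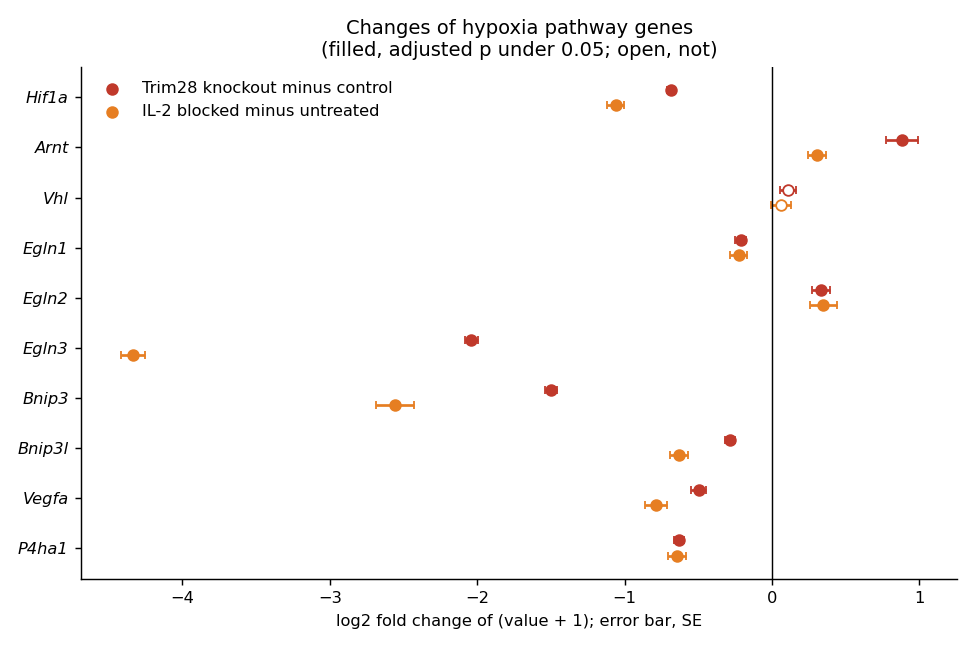
Log2 fold change of (value + 1), with its SE, of the 10 genes in the Trim28 knockout against control and in IL-2 blocked against untreated cells, with filled points for adjusted p under 0.05. All genes lie on the same side of 0 in both comparisons, Egln3 at -2.04 and -4.33 is farthest from 0, and the points of P4ha1, Egln1 and Egln2 nearly coincide.

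Whether the sizes differed between the experiments was tested as the knockout effect minus the blockade effect in a fit of all 8 libraries. Of 12428 genes, 41.7% passed (24.7% with a positive difference and 17% with a negative one), as did 6 of the 10 members, all with a positive difference. The experiments also differed in more than the treatment, and the length of activation in the first is not given. Egln3 differed by 2.30 (SE 0.1, adjusted p = 3.37e-09), so that its fold with blockade was 4.91 times that in the knockout. Bnip3 differed by 1.06 (SE 0.11), Hif1a by 0.38 (SE 0.069) and Bnip3l by 0.34 (SE 0.064), each falling further with blockade. Vegfa also fell further with blockade, by 0.29 (SE 0.095, adjusted p = 0.0273), but not without the filter (adjusted p = 0.0599) or by DESeq2 (0.24, adjusted p = 0.214). Arnt differed by 0.57 (SE 0.12, adjusted p = 0.00195), having risen further in the knockout. For P4ha1 the difference was 0.0097 with a 95% interval from -0.14 to 0.16. The interval ran from -0.14 to 0.16 for Egln1, from -0.28 to 0.25 for Egln2 and from -0.14 to 0.23 for Vhl. Differences within these bounds were not excluded.

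Hypoxia-inducible factors bind DNA at a short core, which was looked for as ACGTG or GCGTG on either strand in the 250 bases before the RefSeq transcription start (GRCm38.p6), where CACGTG counts once on each strand. The promoter table held 11 such windows for 9 members, with none for Bnip3l, and 9 windows had a match. Of all 32851 windows 38.6% had one, 6.58% had at least 3 and 1.01% at least 5. These shares were not tested against each other, and G and C made up 48% to 86% of the member windows. For the Hif1a window and the Vegfa window with matches, the bases after the start were not found in an annotated transcript of the gene. Both of these windows, and the Egln2 window with 1 match, lay inside the annotated gene. A match is a run of letters, not a measured binding site. The windows of the 2 members that fell most and of P4ha1 are printed with matches in capitals, beside that of Arnt, which rose. Bnip3 had 5 matches at 35 to 117 bases before the start, P4ha1 had 3 at 16 to 163 and Egln3 had 1 at 229. Arnt had 1, at 29. Vhl and the upstream window of Vegfa had none.
Egln3, chr12:54203875-54204124, minus strand: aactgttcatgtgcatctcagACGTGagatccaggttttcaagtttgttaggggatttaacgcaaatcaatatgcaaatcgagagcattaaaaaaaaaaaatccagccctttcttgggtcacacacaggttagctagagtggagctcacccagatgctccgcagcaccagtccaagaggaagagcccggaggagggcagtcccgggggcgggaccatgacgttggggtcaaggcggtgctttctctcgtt
Bnip3, chr7:138909507-138909756, minus strand: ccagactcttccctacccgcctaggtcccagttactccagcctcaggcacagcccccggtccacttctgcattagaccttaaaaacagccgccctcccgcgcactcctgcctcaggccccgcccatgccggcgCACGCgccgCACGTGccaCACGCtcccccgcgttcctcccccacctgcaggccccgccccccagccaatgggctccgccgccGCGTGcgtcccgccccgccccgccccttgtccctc
P4ha1, chr10:59323046-59323295, plus strand: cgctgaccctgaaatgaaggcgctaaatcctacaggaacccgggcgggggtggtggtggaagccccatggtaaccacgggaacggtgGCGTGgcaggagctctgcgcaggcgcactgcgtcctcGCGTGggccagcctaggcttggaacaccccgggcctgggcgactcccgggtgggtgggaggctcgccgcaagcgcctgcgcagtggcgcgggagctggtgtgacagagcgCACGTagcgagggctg
Arnt, chr3:95434140-95434389, plus strand: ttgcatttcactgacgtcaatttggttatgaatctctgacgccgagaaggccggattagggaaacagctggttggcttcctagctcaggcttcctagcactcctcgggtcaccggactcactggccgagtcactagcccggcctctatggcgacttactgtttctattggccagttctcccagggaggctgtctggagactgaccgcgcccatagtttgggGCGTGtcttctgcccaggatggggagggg

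Whether the number of matches goes with the size of the change was not tested, and only the 250 bases before the start were searched. Egln3, with the largest falls, had 1 match in a window with 50.8% G and C, and Bnip3 had 5 in one with 72.4%, against a median of 52.4% over all windows. Egln1 and one window of Egln2 had 2 and 4 matches, and they changed little. Hif1a and P4ha1, which fell in both comparisons, had 3 matches each, and Vhl, which passed in neither, had 0. The annotated genes lie on chromosome 12 for Hif1a (73901375 to 73947530, plus strand) and Egln3 (54178981 to 54203860, minus strand) and on chromosome 7 for Bnip3 (138890836 to 138909519, minus strand) and Egln2 (27158658 to 27166802, minus strand). All are protein-coding genes of the GENCODE annotation on GRCm38, the build called mm10.

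Other genes of the pathway were taken from 6 lists with 99 genes, of which 87 were tested in each experiment. In the knockout 16 rose and 47 fell, with a median log2 fold change of -0.24 against 0.031 for all genes. With blockade 19 rose and 46 fell, with a median of -0.34 against 0.018. Over all genes tested, 32.9% rose and 28.2% fell in the knockout, and 31.4% rose and 28.9% fell with blockade. The lists had been drawn up with results of these data known, so the counts are descriptions.

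Regulators of HIF itself mostly moved by small amounts. Of 14 tested, 3 rose and 7 fell in the knockout, and 4 rose and 6 fell with blockade. Over all genes, 32.9% rose and 28.2% fell in the knockout, and 31.4% rose and 28.9% fell with blockade. Hif1an, whose enzyme FIH blocks the HIF activation domain, fell in the knockout (922 and 942 to 639 and 611, log2 fold change -0.58, SE 0.043) and with blockade (-0.40, SE 0.061). Ep300, a co-activator that binds HIF-1 alpha, fell in both (-0.54 and -0.21), as did its relative Crebbp (-0.48 and -0.60). Cited2, which competes with HIF-1 alpha for these co-activators, fell in the knockout (-0.35, SE 0.031) and with blockade from 6164 and 6063 to 3295 and 3593 (-0.83, SE 0.053). Cul2, the scaffold of the VHL ligase, rose in both comparisons (0.33 and 0.35), as did Siah2, which targets EGLN proteins for destruction (0.24 and 0.66). Epas1, the gene of HIF-2 alpha, was too low for the naming rule and was picked out after its values were seen. The control libraries held 34.5 and 44.6 and the knockout libraries 6.89 and 11.8. Untreated cells had 19.7 and 27.8, and blocked cells 1.91 and 1.92, which is 2 reads in each library. P4htm, another gene of this list below the naming rule and picked out in the same way, rose in both comparisons. It went from 20.3 and 23.3 to 38.4 and 39.2 in the knockout (log2 fold change 0.81, SE 0.16). With blockade P4htm went from 47.8 and 42.2 to 107 and 116 (1.29, SE 0.17).

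Glycolytic targets fell more often than they rose but did not move as a block. In the knockout 5 of 19 rose and 12 fell (median -0.16), and with blockade 4 rose and 10 fell (median -0.53). The shares over all genes were 32.9% higher and 28.2% lower in the knockout, and 31.4% and 28.9% with blockade. The brain-type aldolase gene Aldoc fell from 1629 and 1517 to 62 and 71.9 with blockade (log2 fold change -4.54, SE 0.097). In the knockout Aldoc fell from 1206 and 1197 to 440 and 419 (-1.48, SE 0.044). The glucose transporter gene Slc2a3 fell from 3343 and 3541 to 860 and 807 with blockade (-2.04, SE 0.059). It also fell in the knockout, from 4947 and 5269 to 1819 and 1826 (-1.49, SE 0.038). The liver-type phosphofructokinase gene Pfkl rose in the knockout (0.64, SE 0.044) and with blockade (0.93, SE 0.06), as did Pfkfb3, whose enzyme makes an activator of phosphofructokinase (0.43 and 0.67). The transporter gene Slc2a1 and the hexokinase gene Hk2 passed in neither comparison (both genes were chosen once their values were known). Slc2a1 had log2 fold changes of 0.064 and 0.082 (adjusted p = 0.205 and 0.245), and Hk2 of 0.048 and -0.10 (adjusted p = 0.346 and 0.0881).

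Among other HIF targets 2 of 27 rose and 18 fell in the knockout (median -0.40), and 5 rose and 15 fell with blockade (median -0.44). Among all genes 32.9% rose and 28.2% fell in the knockout, and 31.4% rose and 28.9% fell with blockade. The genes with the largest falls, among those with a mean of at least 100, were not the same in the 2 comparisons. In the knockout they were Nos2, the inducible nitric oxide synthase gene (174 and 179 to 30.5 and 29.4, log2 fold change -2.52, SE 0.098), and the chemokine receptor gene Cxcr4 (437 and 404 to 84.7 and 71.6, -2.42, SE 0.1). Cxcr4 did not pass with blockade (0.26, adjusted p = 0.0655), while Nos2 fell there too (-0.54, SE 0.11). With blockade the largest was that of the stress-response gene Ndrg1 (6291 and 6109 to 1245 and 1289, -2.29, SE 0.052), which also fell in the knockout (-0.66, SE 0.022). The carbonic anhydrase gene Car12 rose in both comparisons (0.81 and 1.17), the adenylate kinase gene Ak4 with blockade (0.92, SE 0.12) and the haem oxygenase gene Hmox1 in the knockout (0.31, SE 0.076).

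Relatives of P4ha1, Bnip3 and Vegfa were examined as well. P4ha2, the paralogue of P4ha1, fell from 241 and 256 to 59.1 and 65.7 in the knockout (log2 fold change -1.98, SE 0.092) and from 173 and 183 to 16.2 and 16.3 with blockade (-3.37, SE 0.19). Its log2 fold changes were thus larger than those of P4ha1 in both, a difference between the genes that was not tested. The lysyl hydroxylase gene Plod2 fell in both (-0.67 and -1.01), and Crtap, a partner of the prolyl 3-hydroxylases, rose in both (0.53 and 0.28). In all, 1 of 9 collagen hydroxylase genes rose and 4 fell in the knockout, and 2 of 8 rose and 4 fell with blockade. Of 15 mitophagy genes 4 rose and 6 fell in the knockout, and 3 rose and 9 fell with blockade. Both lists stand beside 32.9% higher and 28.2% lower over all genes in the knockout, and 31.4% and 28.9% with blockade. The autophagy adaptor genes Sqstm1 (-0.65 and -0.89) and Tax1bp1 (-0.87 and -0.88) fell in both, while the receptor genes Phb2 (0.50 and 0.28) and Bcl2l13 (0.22 and 0.35) rose in both. Pink1, the gene of a kinase that starts mitophagy, rose in the knockout (0.47) and fell with blockade (-0.56), and the adaptor gene Optn did the reverse (-0.38 and 0.66). Few genes of VEGF signalling were expressed, with 3 and 4 of 9 tested. The co-receptor gene Nrp1 rose in the knockout (0.26, SE 0.033) and fell with blockade (-0.69, SE 0.051), and Vegfb rose with blockade (0.39, SE 0.1).

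**Figure D4:**
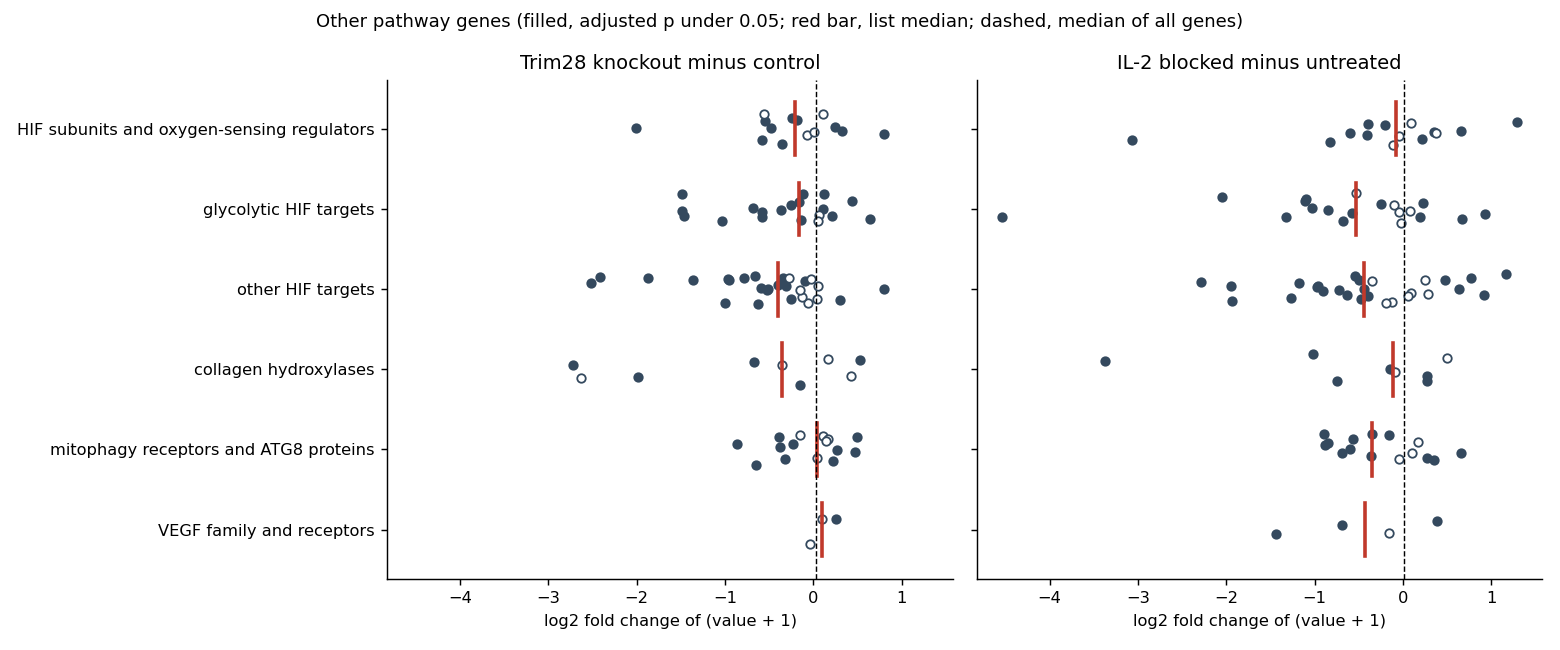
Log2 fold change of (value + 1) of each tested gene of the 6 lists in the knockout (left) and with IL-2 blockade (right), filled where the adjusted p is under 0.05, with a red bar at each list's median and a dashed line at the median of all genes. Glycolytic and other HIF targets spread from clear falls to rises, with medians of -0.16 and -0.40 in the knockout and -0.53 and -0.44 with blockade.

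Genes with a pattern most like Egln3 and Bnip3 were found by the distance between their pairs of log2 fold changes in the 2 comparisons, among 8642 genes with a mean of at least 100 in each table. Nearest to Egln3 were the surface receptor gene Cd7 (-1.57 in the knockout and -4.40 with blockade, distance 0.47), Aldoc (-1.48 and -4.54, distance 0.59) and the interleukin 12 receptor gene Il12rb2 (-1.97 and -4.93, distance 0.60). Nearest to Bnip3 were the death ligand gene Fasl (-1.55 and -2.57, distance 0.051), the fatty acid desaturase gene Scd1 (-1.46 and -2.42, distance 0.14) and the pseudokinase gene Trib2 (-1.54 and -2.40, distance 0.16). Egln3 thus had no close neighbour, while Fasl changed by nearly the same amounts as Bnip3.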

How the data were processed

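PolyA RNA of CD8+ T cells was sequenced by BGI in 8 libraries, 2 per group. Per the submitters' processing notes, the tools were DESeq2, HISAT2 2.2.1, Trim Galore 0.4.4 and StringTie 2.1.4 with mm10, and the read counter, annotation and filters are not given in the sources used here. The values the authors deposited are a normalised signal, gene read counts divided by a size factor per library, and 100% came out as whole reads within 0.001. The authors' deposited log2 fold changes and adjusted p-values were read only for comparison. Genes that reached a value of 10 in 2 or more libraries were tested with limma 3.58.1 in R 4.3.3 (log2 of value + 1, mean-variance trend, Benjamini-Hochberg adjustment over all genes tested), each experiment alone, and the difference of the effects over all 8 libraries, as effects within each table, since the tables were scaled separately. EdgeR 4.0.16 (TMM) and DESeq2 1.42.0 on the recovered reads, other pseudocounts (0.5 and 5), other filters (none, or a mean of at least 50), TMM and upper-quartile rescaling, a replicate block and leaving out each library were alternatives. Limma was tried on simulated data with 200 changed genes among 15287 for the knockout and among 13850 for the blockade. For the knockout it recovered 99% of those changed 2-fold and 68% of those with a log2 change of 0.5. For the blockade it recovered 100% and 67%, with 4.02% of calls false in each. In the real libraries many more genes passed, 61% and 60.3%, and recovery and false calls there were not tested. RPKM used the recovered reads and the union of annotated exons. The tables differ in annotation, with Tceb1 in the first and Eloc in the second for 1 gene, and 24 names of the first were altered to dates. Markers and lists came from general knowledge. The members, lists and naming rule were chosen with earlier results of these data known: all 10 members, up to 2 called genes per list, direction and comparison with the largest change and a mean of at least 100, and the 3 genes nearest to a member. Some genes the rule picks are not reported here.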

Additional observations from a re-analysis of the deposited data

How the results depend on the processing

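All 10 members kept the direction of their log2 fold change under every alternative run in both comparisons. The calls of Hif1a, Egln3, Bnip3, Bnip3l, Vegfa and P4ha1 held throughout, with log2 fold changes from -2.12 to -2.01 for Egln3 and from -1.58 to -1.49 for Bnip3 in the knockout, and from -4.45 to -4.22 and from -2.61 to -2.47 with blockade. Members called higher numbered 0 to 2 in the knockout with 1 library left out, 1 by DESeq2, and 1 with blockade without a filter. Over all genes, DESeq2 called 2846 higher and 2660 lower in the knockout against 5065 and 4344 by limma, leaving out 1 library gave 3336 to 4704 higher, and for the difference DESeq2 called 1722 higher against 3073. The differences near 0 between the effects changed sign, for Egln1 to -0.011 with TMM, -0.014 with upper-quartile scaling, -0.0068 with edgeR and -0.033 with DESeq2, and for P4ha1 to -0.013, -0.016, -0.0090 and -0.035, none of which passed. With a lone library in a group, limma assumes that it varies like the others. Replicate numbers pair libraries only by name in the knockout experiment (correlation of same-numbered deviations 0.013 over 15415 genes), and with the replicate number as a block 2 members were higher and 7 lower, with 4881 and 4197 of all genes. The columns of the blocked libraries carry no replicate numbers, so no such fit was made there. Their names differ by a letter r, which is not explained. Both were taken as the 2 anti-IL-2 replicates of the sample titles. With the longest transcript as length, chosen after seeing the data, the Hif1a to Arnt ratio was 16.4, 5.49, 12 and 4.66 in control, knockout, untreated and blocked cells, against 24.3, 8.15, 17.8 and 6.91. Rescaling moved the median of all genes by -0.078 (knockout) and -0.053 (blockade) with upper-quartile scaling and by less with TMM. The cause of the other changes was not tested. Depth limited low genes such as Epas1, at 2 reads in each blocked library.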
